A study of Mus musculus with 6 samples.

Results

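Neuropeptide Y (NPY) and the adrenergic system were described in whole kidney through 8 genes taken by their symbols out of 23282 gene rows measured in each library. These were the peptide gene Npy, its receptor gene Npy1r, the peptidase gene Dpp4, the adrenergic receptor genes Adra1a, Adra1b, Adra2b and Adrb1, and Th, which encodes tyrosine hydroxylase. All 8 symbols were found, each on 1 row. The tissue was kidney of 3 BALB/c mice and 3 C57BL/6 (B6) mice, both inbred laboratory strains, with 1 library per replicate. The labels name no treatment, allele, age or sex, and the strains are not given as substrains. The genes were selected on their CPM values in these same libraries, with the BALB/c over B6 differences already known, so their values in BALB/c and B6 are given as a description and carry no test.

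The study behind these libraries concerns strain differences of kidney innate lymphoid cells, and the kidney libraries give the RNA of the whole organ in each strain. The Lexogen QuantSeq kit used for the libraries starts from poly(A) tails and so counts mainly the 3′ ends of transcripts. Values are in CPM, the reads of a gene scaled to library size, with a further scaling by the authors. The libraries held between 8310276 and 10418396 reads, and 1 read was worth between 0.0968 and 0.118 CPM. The kidney genes Lrp2, Slc34a1, Umod, Slc12a1, Slc12a3, Aqp2 and Kap were present in every library, with a summed level of 16517 to 18712 CPM in BALB/c and 17801 to 21465 CPM in B6. Xist was read in every library, at 188 to 193 CPM in BALB/c and 104 to 164 CPM in B6 (log2 difference 0.56 ± 0.13, SE, limma adjusted p = 0.00444, and 0.163 with a variance prior that does not follow the level). The Y-linked genes Eif2s3y, Kdm5d and Uty had 0 reads in each library, and Ddx3y had 8 reads in BALB/c replicate 1, 1 read in each of B6 replicates 1 and 2, and 0 in the others. In whole tissue, fewer cells of a type and less RNA per cell cannot be told apart.

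Sympathetic nerves that run along the renal vessels and tubules release noradrenaline, with NPY and ATP as co-transmitters, and their cell bodies lie in ganglia outside the organ. Noradrenaline acts on alpha-1 receptors, which couple to Gq and phospholipase C, on alpha-2 receptors, which couple to Gi and lower cAMP, and on beta receptors, which couple to Gs and raise it. In the kidney these receptors serve vasoconstriction, tubular sodium reabsorption and the release of renin by juxtaglomerular cells. NPY acts mainly through the Gi-coupled Y1 receptor on vascular smooth muscle, and DPP4, a brush border peptidase, trims the peptide to a form that no longer activates Y1.

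The windows around the transcription start of Npy, Adra2b and Th are shown. Among the 8 genes, Npy had the large difference between strains, Adra2b was the receptor gene without overlap between strains, and Th had no reads. Each window runs from 250 bases before to 50 bases after the start on the gene's strand, from RefSeq on GRCm38.p6. They are the B6 reference sequence, and the BALB/c sequence was not analysed here. The Npy window lies at chr6:49822460-49822759 on the plus strand, the Adra2b window at chr2:127362929-127363228 on the plus strand and the Th window at chr7:142899946-142900245 on the minus strand. Capitals mark the Sp1-type letters GGGCGG, or CCGCCC on the other strand, and the cAMP response element TGACGTCA.
Npy: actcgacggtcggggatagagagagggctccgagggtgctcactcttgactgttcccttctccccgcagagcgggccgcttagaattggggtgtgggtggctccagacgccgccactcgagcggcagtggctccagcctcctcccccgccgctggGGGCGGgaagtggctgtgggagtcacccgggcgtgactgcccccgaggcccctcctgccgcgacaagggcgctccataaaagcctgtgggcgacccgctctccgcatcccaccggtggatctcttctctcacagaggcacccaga
Adra2b: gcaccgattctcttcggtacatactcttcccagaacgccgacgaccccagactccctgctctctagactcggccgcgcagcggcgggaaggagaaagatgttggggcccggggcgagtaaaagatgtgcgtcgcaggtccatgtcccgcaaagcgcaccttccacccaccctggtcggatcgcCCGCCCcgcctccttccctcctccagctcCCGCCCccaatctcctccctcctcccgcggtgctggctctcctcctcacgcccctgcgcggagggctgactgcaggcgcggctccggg
Th: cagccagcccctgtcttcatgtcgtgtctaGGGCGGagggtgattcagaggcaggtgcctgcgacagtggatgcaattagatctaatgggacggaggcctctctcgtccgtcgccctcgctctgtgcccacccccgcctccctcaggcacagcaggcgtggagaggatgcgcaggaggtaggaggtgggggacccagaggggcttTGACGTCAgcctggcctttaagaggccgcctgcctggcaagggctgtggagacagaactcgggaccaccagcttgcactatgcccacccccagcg

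The Npy window held GGGCGG once, 95 bases before the start. The Adra2b window held its reverse complement at 67 and at 38 bases before the start. The Th window held GGGCGG 220 bases before the start and TGACGTCA 45 bases before it. Both strands were searched. Of 32851 start regions of this length, 35.7% held GGGCGG on either strand and 1.79% held TGACGTCA. A start region was found for 7 of the 8 genes, and TGACGTCA was in that of Th alone among them. The G and C content was 68.0% for the windows of Npy and Adra2b and 64.3% for that of Th. These matches are letters in a window and not measured binding.

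Npy encodes the precursor of NPY and lies on chromosome 6 from 49822710 to 49829507 on the plus strand (GRCm38, GENCODE M21). No exon of another annotated gene overlaps it, and none of the 50-base words from its last 300 transcript bases occurs in another gene. Npy had 122, 154 and 139 CPM in the 3 BALB/c libraries, against 10.02, 10.7 and 3.81 CPM in the 3 B6 libraries. Every BALB/c library lay above every B6 library, and the lowest BALB/c value was 11.4 times the highest B6 value. These values rest on 1256, 1308 and 1387 reads in BALB/c and on 91, 106 and 34 reads in B6. Npy averaged 138 ± 16.4 CPM in BALB/c and 8.17 ± 3.79 CPM in B6 (SD, n = 3 each), a ratio of means of 16.9. On the log2(CPM + 1) scale the difference was 4.02 ± 0.23 (SE), the 4th highest of the 13317 genes tested.

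The spread of Npy among mice was wider in B6 relative to the mean, but not in CPM (SD 3.79 in B6 and 16.4 in BALB/c). The highest B6 library was 2.80 times the lowest, and the coefficient of variation was 46.4%, where counting alone gives 11.4%. In BALB/c the highest library was 1.27 times the lowest, with a coefficient of variation of 11.9% and 2.76% from counting. B6 replicate 3 had the low value. Without it the log2 difference was 3.61, and over the left-out libraries it lay between 3.61 and 4.25.

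**Figure D1:**
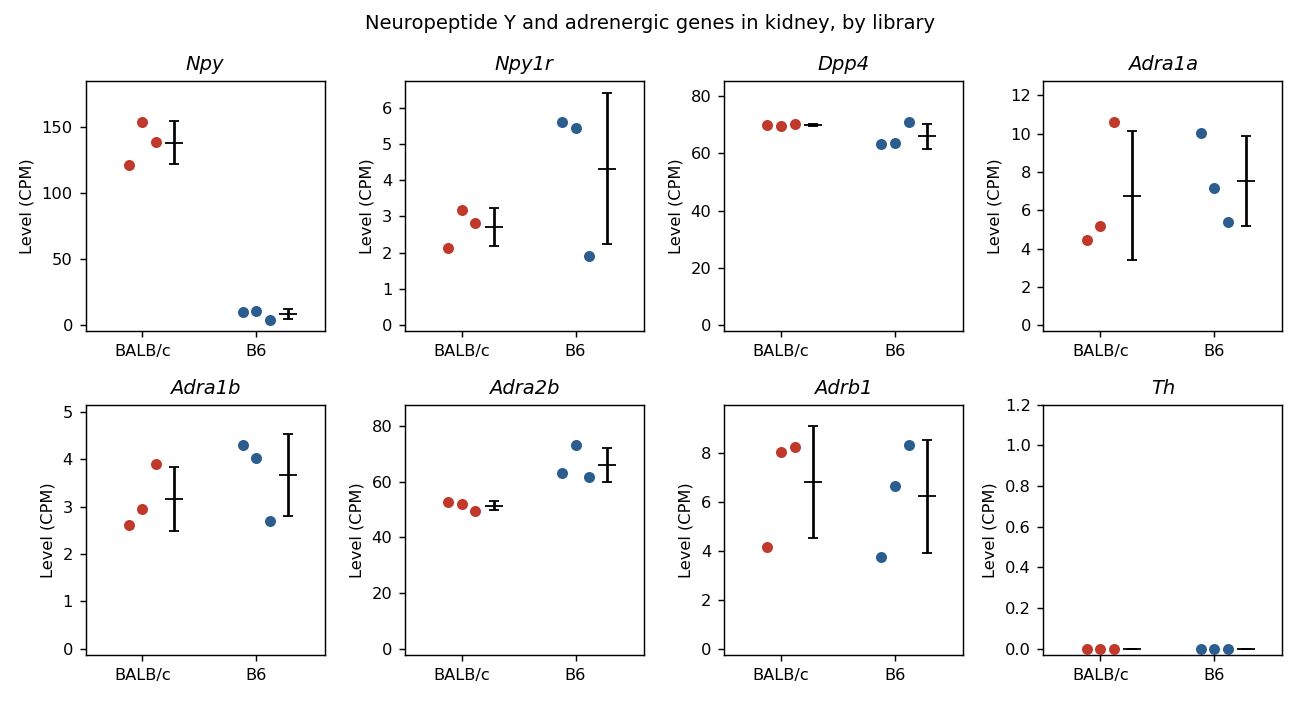
Level of the 8 genes in CPM in each library, with BALB/c in red and B6 in blue, and a black bar for the mean ± SD of 3 libraries. Npy lies between 122 and 154 CPM in BALB/c and between 3.81 and 10.7 CPM in B6, Adra2b also has no overlap between strains, and Th is at 0 in all 6 libraries.

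Of the 7 genes that could be tested, 1 was called in the fit across all genes, Npy, where 9.09% of all genes tested were called (Benjamini-Hochberg adjusted p under 0.05 by limma). BALB/c was higher in 4.17% of genes tested and lower in 4.93%. The libraries of the strains did not overlap for 2 of the 7, Npy and Adra2b, against 25.4% of all genes tested, 12.5% with BALB/c higher and 12.9% with BALB/c lower. Nothing is read from these counts, since the strain difference was known when the genes were chosen. All 7 reached 1 CPM in every library of both strains, so none entered the fit through the higher strain alone. Th did not pass the filter on low values. Outside Npy the differences on the log2 scale were between 0.09 and 0.44 in size.

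Npy1r encodes the Y1 receptor and lies on chromosome 8 from 66697192 to 66706792. It had 2.13, 3.18 and 2.81 CPM in BALB/c, against 5.61, 5.44 and 1.91 CPM in B6. The groups overlapped, because B6 replicate 3 was the lowest of all 6 libraries while the other B6 libraries were the highest. The log2 difference was -0.44 ± 0.37 (SE), on 77 reads in BALB/c and 122 in B6. Without B6 replicate 3 it was -0.83, and without B6 replicates 1 or 2 it was -0.23 or -0.25. Over the left-out libraries it lay between -0.83 and -0.23, so the size of the difference rests on single B6 libraries.

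Dpp4 encodes dipeptidyl peptidase 4, which removes the first dipeptide of NPY, and lies on chromosome 2 from 62330073 to 62412231 on the minus strand. Its exons overlap those of Gm13561 on the opposite strand, a gene that is not among the rows of the files. Dpp4 had 69.9, 69.6 and 70.4 CPM in BALB/c, against 63.2, 63.6 and 71.1 CPM in B6. The B6 range enclosed all 3 BALB/c values. Dpp4 averaged 69.9 ± 0.398 CPM in BALB/c and 66.0 ± 4.46 CPM in B6 (SD, n = 3 each), a log2 difference of 0.09 ± 0.12 (SE). The BALB/c libraries differed by a coefficient of variation of 0.569%, less than the 3.86% that counting gives.

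Adra2b encodes the alpha-2B adrenergic receptor and lies on chromosome 2 from 127363208 to 127367221. It had 52.7, 51.9 and 49.6 CPM in BALB/c, against 63.2, 73.1 and 61.8 CPM in B6. Every BALB/c library was below every B6 library. Adra2b averaged 51.4 ± 1.63 CPM in BALB/c and 66.0 ± 6.16 CPM in B6 (SD, n = 3 each), a log2 difference of -0.35 ± 0.13 (SE).

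The alpha-1 receptor genes overlapped between strains. Adra1a, on chromosome 14 from 66635251 to 66771168, had 4.45, 5.19 and 10.6 CPM in BALB/c, against 10.02, 7.16 and 5.38 CPM in B6. BALB/c replicate 3 and B6 replicate 1 were the high libraries. Within each strain Adra1a spread by more than counting gives, with a coefficient of variation of 49.9% in BALB/c and 31.1% in B6, where counting gives 12.37% and 11.95%. Its log2 difference was -0.18 ± 0.32 (SE). Adra1b, on chromosome 11 from 43774606 to 43901210, had 2.61, 2.95 and 3.91 CPM in BALB/c, against 4.29, 4.03 and 2.69 CPM in B6. Its spread was closer to counting, at 21.3% against 18.2% in BALB/c and 23.4% against 17.1% in B6. The log2 difference of Adra1b was -0.16 ± 0.34 (SE). Over the left-out libraries Adra1a moved between -0.52 and 0.03 and Adra1b between -0.32 and -0.06.

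Adrb1 encodes the beta-1 receptor, through which sympathetic nerves drive renin release, and lies on chromosome 19 from 56722199 to 56733113. It had 4.16, 8.02 and 8.22 CPM in BALB/c, against 3.74, 6.65 and 8.30 CPM in B6. Both strains held 1 low library, replicate 1 of each, and their ranges were nearly the same. The log2 difference was 0.12 ± 0.33 (SE), and over the left-out libraries it lay between -0.16 and 0.39, with both signs. Ren1, the renin gene, had 122, 99.3 and 58.9 CPM in BALB/c, against 70.4, 95.7 and 114 CPM in B6. In B6 the library order of Ren1 was that of Adrb1, and in BALB/c it was the reverse. The log2 difference of Ren1 was -0.04 ± 0.19 (SE, limma adjusted p = 0.946).

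Th encodes the rate-limiting enzyme of catecholamine synthesis and lies on chromosome 7 from 142892752 to 142931128 on the minus strand. It had 0 reads in all 6 libraries. A count of 0 allows up to 3 reads, which is 0.290 to 0.354 CPM in the BALB/c libraries and 0.302 to 0.336 CPM in the B6 libraries, for counting error only. No difference between strains was detectable at this depth. Dbh and Pnmt, which encode the enzymes that make noradrenaline and adrenaline, also had 0 reads in every library.

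Markers of cells that could carry Npy or Th were set beside Npy. The 10 peripheral neuron genes summed to 6.29 to 8.96 CPM in BALB/c and to 7.04 to 8.37 CPM in B6, with Tubb3 and Elavl4 at 0 reads. Uchl1 and Stmn2, the tested genes of that list, were not called. Uchl1 had 2.61, 1.18 and 1.90 CPM in BALB/c, against 2.53, 5.24 and 3.36 CPM in B6, with overlap. Stmn2 had 3.19, 2.36 and 3.21 CPM in BALB/c, against 1.32, 1.31 and 2.35 CPM in B6, with no overlap. The closest libraries of Stmn2, BALB/c replicate 2 and B6 replicate 3, held 20 and 21 reads. The log2 differences went opposite ways, at -0.69 ± 0.37 for Uchl1 and 0.57 ± 0.36 for Stmn2 (SE, limma adjusted p = 0.291 and 0.396). Syt1 had 0.387, 1.18 and 1.10 CPM in BALB/c, against 0.220, 0.101 and 0.112 CPM in B6. It had no overlap either and was below the filter for a test. Of the neurofilament genes, Nefm had 0, 2.95 and 0.601 CPM in BALB/c, against 0, 0.907 and 0.672 CPM in B6, and Nefl had 0.0966, 0.590 and 0.201 CPM in BALB/c, against 2.86, 0.604 and 1.23 CPM in B6, with no overlap and below the filter for a test. The 8 chromaffin genes summed to 72.7 to 97.2 CPM in BALB/c and to 131 to 144 CPM in B6, nearly all of it from Slc18a1 and Phox2a. Without those, the sum was 0.825 to 1.70 CPM in BALB/c and 0 to 0.604 CPM in B6, with Dbh and Pnmt at 0 reads. The adrenal cortex genes Cyp11b1, Cyp11b2, Cyp21a1, Mc2r and Nr5a1 had 0 reads in every library, and Star made up nearly all of that list's 1.84 to 6.25 CPM in BALB/c and 2.52 to 3.92 CPM in B6.

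Some markers of other cells differed between strains. The 5 T, NK and myeloid cell genes summed to 22.6 to 24.4 CPM in BALB/c and to 12.7 to 16.8 CPM in B6, with Cd3e at 0 reads in BALB/c replicate 2 and Nkg7 at 0 in BALB/c replicate 1 and B6 replicate 3. Of the 3 tested genes on that list 1 was called, the myeloid lysozyme gene Lyz2, at a log2 difference of 1.22 ± 0.37 (SE, limma adjusted p = 0.0376). That call ended under 7 of the 16 alternative settings (limma adjusted p up to 0.200), and Lyz2 shares 21.6% of its 3′ end words with other genes. Lyz2 had 12.7, 10.7 and 5.01 CPM in BALB/c, against 6.17, 2.52 and 2.02 CPM in B6, with overlap. Ptprc and Cd68 also overlapped, at log2 differences of 0.40 ± 0.28 and 0.12 ± 0.39 (SE, limma adjusted p = 0.450 and 0.911). Cd3e averaged 0.196 CPM in BALB/c and 0.431 CPM in B6, and Nkg7 0.591 and 0.474 CPM, both with overlap. The 5 endothelial genes summed to 249 to 256 CPM in BALB/c and to 288 to 312 CPM in B6, and none of the 5 was called by limma, with Pecam1, Kdr and Plvap, 3 of them, at an unadjusted p under 0.05. The smooth muscle and juxtaglomerular genes summed to 160 to 232 CPM in BALB/c and to 218 to 304 CPM in B6, where Acta2 was called lower, at a log2 difference of -0.82 ± 0.13 (SE, limma adjusted p = 1.66e-04), a call that ended with a variance prior that does not follow the level (0.0525). Acta2, Myh11 and Tagln had no overlap between strains, each lower in BALB/c. The log2 differences of Myh11 and Tagln were -0.56 ± 0.18 and -0.51 ± 0.18 (SE, limma adjusted p = 0.0505 and 0.0873). Cnn1, at -0.42 ± 0.35, and Ren1, at -0.04 ± 0.19 (SE), overlapped between strains. The part of these cells in the values of Npy and of the vascular receptor genes was not tested. The 5 Schwann cell genes summed to 5.54 to 9.52 CPM in BALB/c and to 4.64 to 8.48 CPM in B6, and the 4 liver genes to 88.7 to 133 CPM in BALB/c and to 132 to 145 CPM in B6. The fibrinogen gene Fgb, on the liver list, had 0, 1.06 and 2.004 CPM in BALB/c, against 11.1, 17.4 and 22.4 CPM in B6, a log2 difference of -3.24 ± 0.38 (SE, limma adjusted p = 2.24e-06). Adipocyte genes summed to 24.4 CPM in B6 replicate 2 and to at most 7.65 CPM in the other libraries.

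The rest of the NPY and catecholamine system was taken from 5 lists with 46 further rows, of which 26 passed the filter. Of these, 2 rose, 1 fell and 23 did not pass the test, so 11.5% were called where 9.09% of all genes were. Their median log2 difference was -0.06, and that of all genes tested was 0.00. The genes that rose were the peptidase genes Mme and Xpnpep1, and the gene that fell was Slc18a1.

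Mme encodes neprilysin, a brush border endopeptidase that degrades NPY among other peptides. It had 482, 457 and 443 CPM in BALB/c, against 278, 281 and 349 CPM in B6. All 3 BALB/c libraries lay above the B6 libraries, by a log2 difference of 0.61 ± 0.10 (SE, limma adjusted p = 1.55e-04). Xpnpep1 encodes an aminopeptidase that cleaves peptides with proline at the second position, as NPY has. It had 98.0, 105 and 104 CPM in BALB/c, against 74.4, 53.3 and 76.2 CPM in B6, a log2 difference of 0.60 ± 0.13 (SE, limma adjusted p = 0.00374). With a variance prior that does not follow the level, both genes lost their calls (limma adjusted p = 0.0709 for Mme and 0.119 for Xpnpep1).

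The other enzymes of NPY processing were not called. Pam, which amidates the C terminus of NPY, averaged 93.9 ± 5.70 CPM in BALB/c and 98.8 ± 2.59 CPM in B6 (SD, n = 3 each). Cpe, a carboxypeptidase that trims prohormones, had 13.6, 18.6 and 13.4 CPM in BALB/c, against 13.9, 22.9 and 31.1 CPM in B6, with a log2 difference of -0.49 ± 0.24 (SE, limma adjusted p = 0.253). Dpp8, Dpp9, Xpnpep2 and Prep had log2 differences between -0.34 and 0.56. Dpp8, a cytosolic relative of Dpp4, had 19.6, 31.4 and 26.2 CPM in BALB/c, against 32.5, 32.6 and 32.1 CPM in B6, with no overlap (limma adjusted p = 0.272). The prohormone convertase gene Pcsk1 had 0 reads, and Pcsk2 had 9 reads in BALB/c and 0 in B6. Pcsk1 and Pcsk2 encode the enzymes that cut pro-NPY in neurons and endocrine cells.

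Slc18a1 encodes VMAT1, a vesicular monoamine transporter known from chromaffin and enteroendocrine cells. It had 43.4, 30.1 and 38.7 CPM in BALB/c, against 97.1, 95.1 and 89.1 CPM in B6. The strains were well apart, and the log2 difference was -1.32 ± 0.14 (SE, limma adjusted p = 4.40e-07). It stayed called under all 16 alternative settings. Slc18a2, the neuronal VMAT2, had 3.10, 3.54 and 2.30 CPM in BALB/c, against 1.87, 4.13 and 3.25 CPM in B6, with overlap. The noradrenaline transporter gene Slc6a2 had 5 reads in BALB/c and 1 read in B6.

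The remaining catecholamine genes were not called. Ddc, the dopa decarboxylase with which proximal tubules make dopamine, averaged 326 ± 23.6 CPM in BALB/c and 341 ± 36.3 CPM in B6 (SD, n = 3 each). The genes for tetrahydrobiopterin, the cofactor of tyrosine hydroxylase, were read without it: Gch1, Gchfr, Pts, Spr, Qdpr and Pcbd1 had log2 differences between -0.34 and 0.47. Rnls, the renalase gene, had 0.78 ± 0.34 (SE, limma adjusted p = 0.178). Maoa and Maob, the monoamine oxidases, had log2 differences of 0.47 ± 0.22 and -0.22 ± 0.32 (SE). The organic cation transporter gene Slc22a2 had 0.04 ± 0.09. Slc22a3, the extraneuronal monoamine transporter, has exons that overlap those of Plg on the opposite strand. It had 1.45, 2.60 and 1.40 CPM in BALB/c, against 0.440, 0 and 0 CPM in B6, and was not called (limma adjusted p = 0.0571). It passed the filter through the 3 BALB/c libraries alone, so its adjusted p-values after the filter are a description and carry no test. Its call depended on the setting: it was called with no filter beyond 1 read, with a prior without trend and by limma-voom, where the lowest adjusted p was 0.0186.

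**Figure D2:**
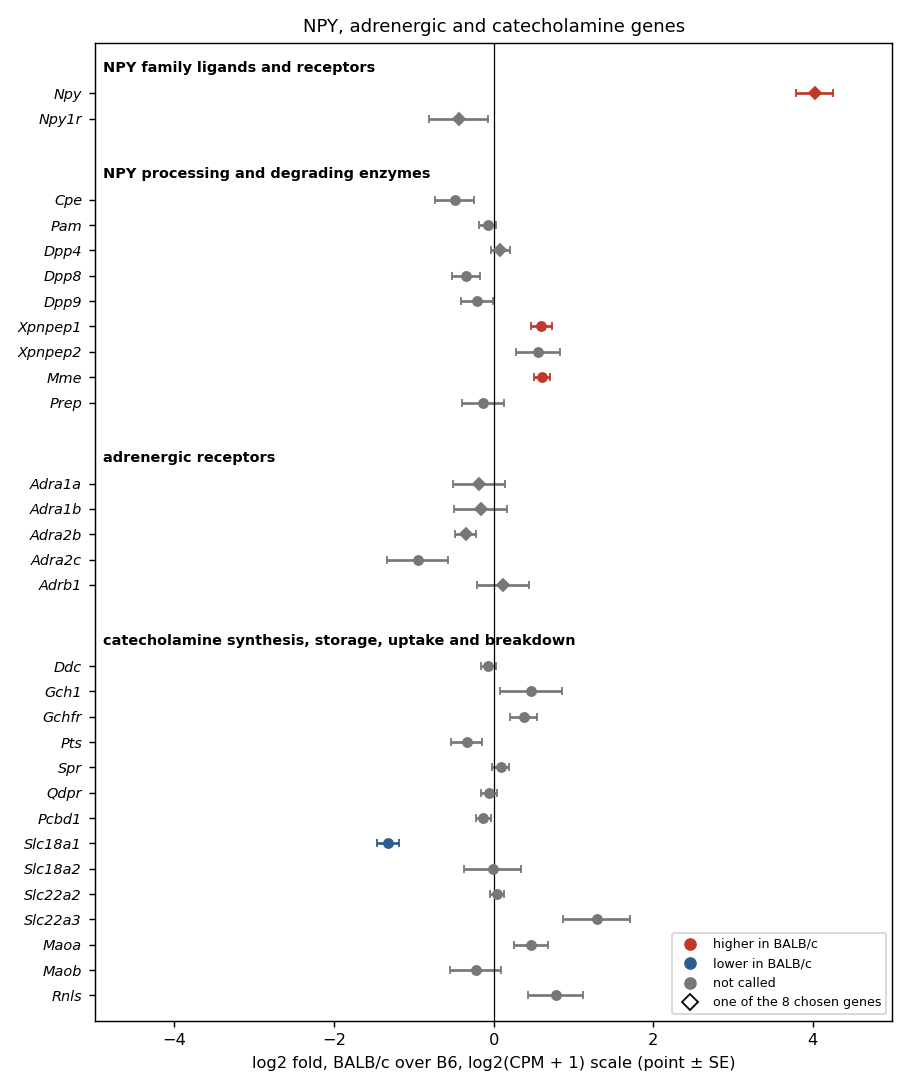
Log2 differences, BALB/c over B6, with their SE for tested genes of the NPY, adrenergic and catecholamine lists, with diamonds for the chosen genes. Npy stands at 4.02, Slc18a1 at -1.32, and Mme and Xpnpep1 at about 0.6, while the other genes shown were not called.

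The other receptor genes had few reads. Adra2c, the alpha-2C receptor gene, had 1.45, 0.590 and 2.81 CPM in BALB/c, against 3.30, 3.93 and 4.04 CPM in B6, with no overlap and a log2 difference of -0.95 ± 0.38 (SE, limma adjusted p = 0.135). Adra2a had 21 reads in BALB/c (9, 3 and 9) and 36 in B6 (9, 10 and 17), below the filter for a test. It had no overlap in CPM, but the closest libraries, at 0.901 CPM in BALB/c and 0.990 CPM in B6, each held 9 reads. Adrb3 had 18 reads in BALB/c and 1 in B6, and Adra1d had 0. Of the NPY receptor genes, Npy2r had 11 reads in BALB/c and 3 in B6. Npy4r and Npy5r had 0 reads, and so had the ligand genes Pyy and Ppy. Npy6r had 0.483, 0.118 and 0.201 CPM in BALB/c, against 4.62, 0.202 and 5.83 CPM in B6, so B6 replicate 2 lay with the BALB/c libraries. Drd2, Drd3, Drd4 and Drd5 had 0 reads. Drd1, the D1 dopamine receptor gene, had 1.94, 3.07 and 0 CPM in BALB/c, against 0.220, 0 and 0 CPM in B6. Npy6r and Drd1 did not pass the filter and have no test.

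Of 52 tested genes that carry or answer the receptors' signals, 6 rose, 2 fell and 44 did not pass the test. That is 15.4% called, where 9.09% of all genes were, with a median log2 difference of -0.03. With a variance prior without trend 2 of them were called, the protein kinase A subunit genes Prkar2a and Prkar2b.

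Prkar2a and Prkar2b encode the type II regulatory subunits of the cAMP-dependent protein kinase, and they moved in opposite directions. Prkar2a had 23.7, 23.5 and 20.6 CPM in BALB/c, against 42.3, 51.7 and 50.7 CPM in B6, a log2 difference of -1.06 ± 0.16 (SE, limma adjusted p = 5.48e-05). Prkar2b had 12.2, 18.5 and 14.0 CPM in BALB/c, against 5.06, 6.05 and 4.04 CPM in B6, a log2 difference of 1.39 ± 0.27 (SE, limma adjusted p = 0.00117). Both stayed called under all 16 alternative settings. The catalytic subunit genes Prkaca and Prkacb and the type I subunit gene Prkar1a had log2 differences of -0.02, -0.18 and -0.13 and were not called.

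Adcy1, an adenylyl cyclase gene, had 15.6, 19.3 and 26.8 CPM in BALB/c, against 10.3, 8.97 and 5.27 CPM in B6, a log2 difference of 1.24 ± 0.26 (SE, limma adjusted p = 0.00282). Adcy6 had -0.49 ± 0.16 (SE, limma adjusted p = 0.0565). The cAMP phosphodiesterase gene Pde4c rose by 0.73 ± 0.20 (SE, limma adjusted p = 0.0194), a call that ended without any of BALB/c replicates 1 and 2 and B6 replicates 1 and 3 (limma adjusted p up to 0.0960), with no filter beyond 1 read and with a prior without trend. Pde4c shares 19.6% of its 3′ end words with other genes. The G protein genes Gnas, Gnaq, Gna11, Gnai1, Gnai2 and Gnai3 had log2 differences between -0.17 and 0.15, and none was called.

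Among regulators of receptors, Rgs2, which accelerates GTP hydrolysis by Gq, had 124, 118 and 117 CPM in BALB/c, against 86.2, 80.3 and 87.1 CPM in B6. The strains did not overlap, and the log2 difference was 0.50 ± 0.11 (SE, limma adjusted p = 0.00343). Akap12, an anchoring protein of protein kinase A, rose by 0.63 ± 0.14 (SE, limma adjusted p = 0.00514). Akap5, also an anchoring protein of that kinase, had 0.39 ± 0.12 and was not called (limma adjusted p = 0.0507), but it was called under 8 of the 16 alternative settings (limma adjusted p between 0.0309 and 0.268 over all 16). The receptor kinase genes Adrbk1, Adrbk2, Grk4, Grk5 and Grk6 and the arrestin genes Arrb1 and Arrb2 had log2 differences between -0.46 and 0.28, and none was called.

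Of the 10 genes listed as targets, 1 rose and 1 fell. Fos, an immediate early gene that cAMP and many other stimuli induce, had 4.74, 5.07 and 12.6 CPM in BALB/c, against 0, 2.82 and 1.12 CPM in B6, a log2 difference of 1.96 ± 0.44 (SE, limma adjusted p = 0.00517). The call of Fos ended without B6 replicate 1, the library at 0 (limma adjusted p = 0.0549), by limma-voom (0.0517), with no filter beyond 1 read (0.0568) and with a prior without trend (0.110). Slc12a3, the thiazide-sensitive sodium chloride cotransporter gene, had 173, 175 and 183 CPM in BALB/c, against 240, 288 and 241 CPM in B6, a log2 difference of -0.53 ± 0.10 (SE, limma adjusted p = 8.47e-04). Wnk4, Crem, Per1, Nr4a1, Slc9a3 and Ppargc1a were not called. Exons of Adcy6, Crem, Dpp8, Gnas, Phox2a, Slc18a2, Uchl1 and Wnk4 overlap those of a gene on the opposite strand. So do exons of Adrb3, Cd3e, Pcsk2, Qdpr, Slc34a1, Umod and Xist, and those of Nefl and Nefm overlap each other. The reads of these genes cannot be told apart from those of the overlapping gene where the counting did not use strand.

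**Figure D3:**
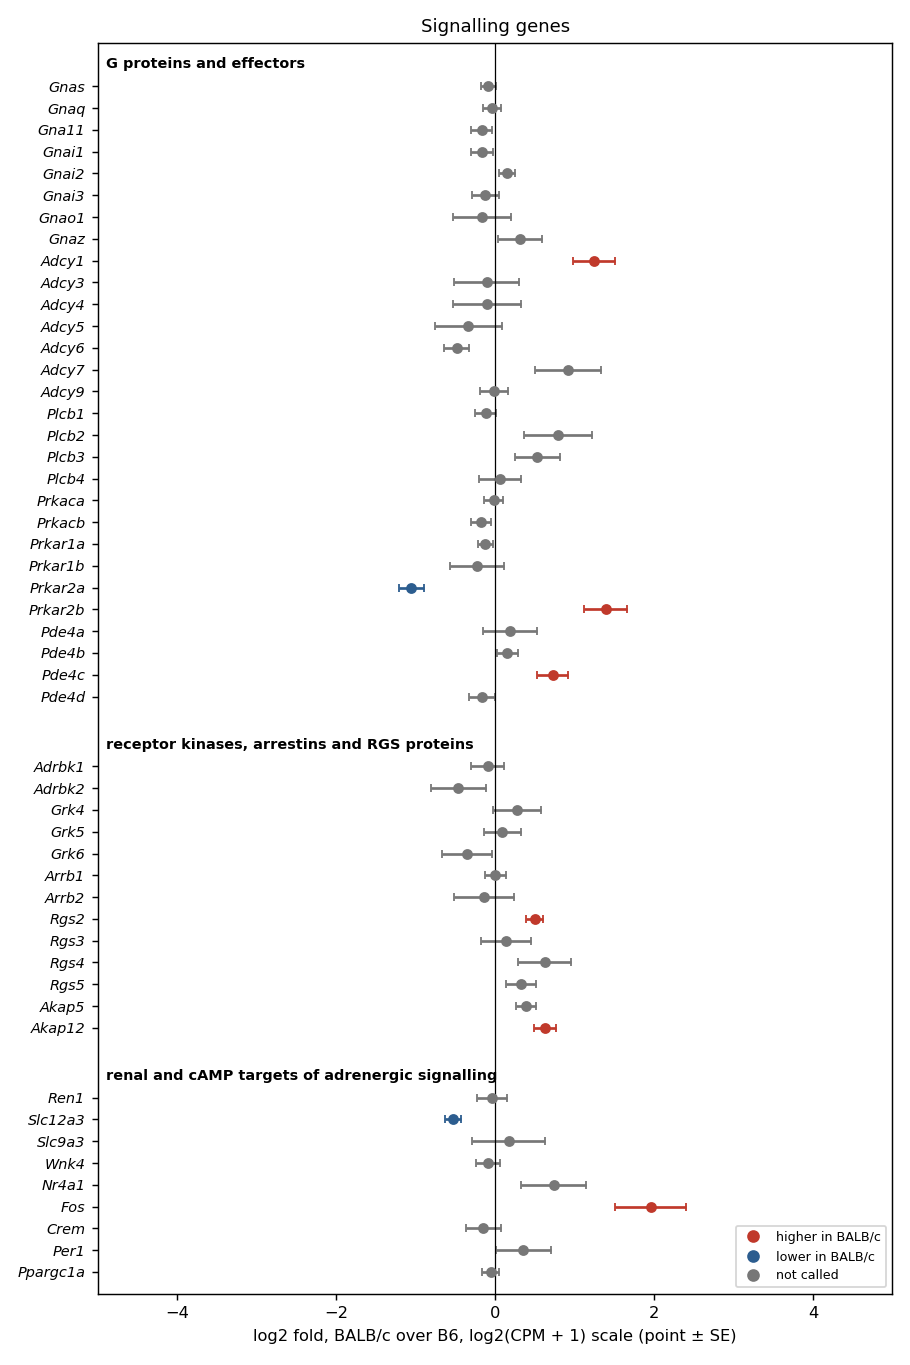
Log2 differences, BALB/c over B6, with their SE for tested genes of the lists on G proteins and effectors, on receptor regulators and on targets. Called higher in BALB/c are 6 genes and called lower 2, with Prkar2b at 1.39 and Prkar2a at -1.06.

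Npy was then set beside its neighbours on chromosome 6. Within 2 Mb on either side 37 other genes were tested, of which 7 were higher in BALB/c and 1 was lower. That is 21.6% called, where 9.09% of all genes were. The window was set after seeing the data, so nothing is read from this share. The nearest tested genes, Fam221a at 432 kb before Npy and Mpp6 at 281 kb after it, were not called. The called genes lay between 559 and 1377 kb before Npy, with log2 differences from -0.71 for Tra2a to 1.32 for Aoc1. Among them Gimap8, Gimap9 and Gimap4 are adjacent tested genes, 1131 to 1162 kb before Npy. All 7 tested genes after Npy were not called, with log2 differences between -0.23 and 0.06. No neighbour in the window differed by as much as Npy.

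**Figure D4:**
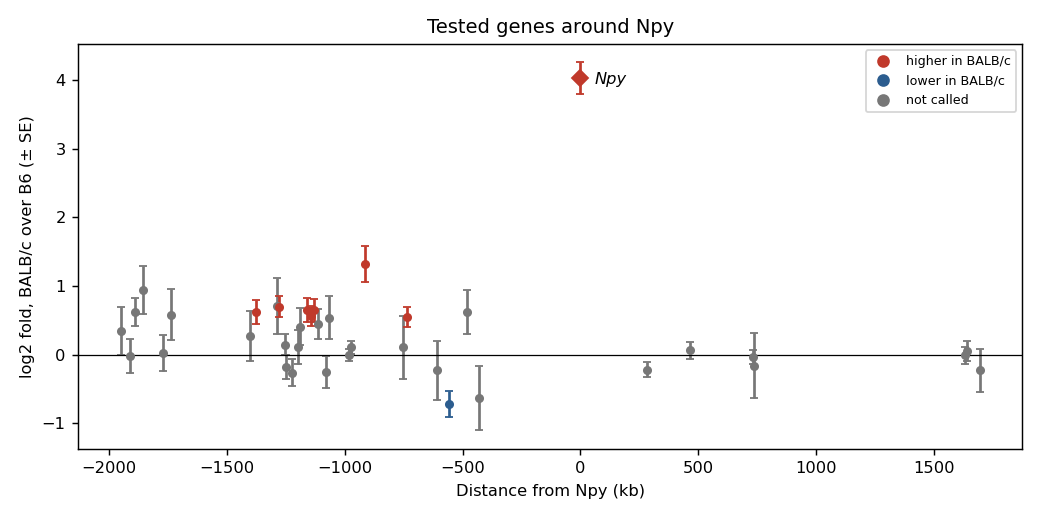
Log2 differences, BALB/c over B6, with their SE for Npy (diamond) and the 37 tested genes within 2 Mb, by distance in kb along chromosome 6. Npy is at 4.02, and the neighbours lie between -0.71 and 1.32.

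The genes whose log2 values followed each chosen gene most closely over the 6 libraries are a description, since libraries of a strain share their strain and 6 points fit many genes. For Npy they were Gm7854 and Slc4a11 (Pearson r = 0.998 and 0.996). Slc4a11, a membrane transporter gene of the Slc4 family, had 57.5, 65.7 and 71.9 CPM in BALB/c, against 14.9, 15.8 and 7.51 CPM in B6, so B6 replicate 3 was the lowest library here too. For Npy1r they were Ufc1 and Hspb2, for Dpp4 Rps21 and Saysd1, for Adra1a Lamtor1 and Mblac1, for Adra1b Veph1 and Dirc2, for Adra2b R3hdm2 and Tmod1, and for Adrb1 Isca2 and Rab33b, with r between 0.983 and 0.997.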

How the data were processed

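RNA of whole kidney was measured in 3 BALB/c and 3 B6 libraries, grouped by their titles. The authors ran Bowtie2 and bedtools on mouse build mm10, per the submitters' processing notes, with versions, annotation and strand use not given in the sources used here. Log2 values were deposited, as log2(CPM + 1) with a further factor per library. This unit was worked out from the values: up to 20 reads, 100% of them lay within 0.1 read of a whole number of steps, which gives the read numbers used here. BALB/c reads were thus read with the B6 reference, and loss of reads there was not tested.

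Genes with a log2 value of at least 1 in at least 3 libraries were tested with limma 3.58.1 in R 4.3.3 (strain as the sole term, variance prior following the level, two-sided, Benjamini-Hochberg over 13317 genes, called under 0.05). The design had assumed that raw counts might be deposited and named this test for log values. The script was tested on simulated data. Folds on this scale understate the change of low genes. The series' design text gives 3 mice per strain. The prior adds 18.4 degrees of freedom to 4, so p-values rest largely on genes of similar level. Members and lists were chosen with earlier results of these data known. Named were the 8 members, every tested gene of 5 lists, called genes and up to 4 with the smallest p from 3 signalling lists, called markers, and 2 look-alike genes per member; the window around Npy was set after seeing the data. Some genes of these lists, which the counts include, are not reported here by name. Positions and overlaps came from GENCODE M21 on GRCm38, which mm10 names, and start regions from RefSeq. Same-numbered libraries of the strains did not deviate together (r between -0.08 and 0.01), and nothing in the labels pairs them.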

Additional observations from a re-analysis of the deposited data

How the results depend on the processing

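Under the 16 alternatives the log2 difference of Npy lay between 3.48 and 4.25, given as a description since the 8 genes were selected on these values. Of 789 pairs of a named gene and an alternative in which it was tested, 752 kept their side of the threshold, 25 lost a call, 12 gained one and 0 reversed. The variance prior without a trend called 493 genes against 1211, and 2 of the signalling genes against 8; the cause was not tested. Leaving out 1 library gave 797 to 1138 called genes, the lowest without BALB/c replicate 1 (797) and B6 replicate 1 (806), from fewer samples; 3 to 4 of the other NPY and catecholamine genes and 6 to 9 signalling genes were called. With the replicate block 977 genes were called, with 3 and 8 in those groups; the pairing by number is not given by the labels, and the correlations of same-numbered libraries were -0.08, -0.06 and 0.01. Library totals and the upper quartile shifted the median gene by 0.02 and 0.03 on the log2 scale. Npy1r, Adra1b and the other receptor genes but Adra2b rest on fewer than 110 reads in a library, which limits how small a difference could be seen.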
